A study of Daphnia magna with 230 samples.

Results

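The transcripts described here are 100 Daphnia magna transcripts whose level was higher with pyriproxyfen in laboratory water and lower with pyriproxyfen in wetland water. They were taken from 16482 of the 29127 transcripts in the deposited table, those averaging at least 1 CPM (a transcript's estimated reads as a share of the library total, scaled to the usual CPM unit) across the 69 libraries of the wetland experiment. For each transcript, the mean log2(CPM + 1) in Lab Water-119 ng/L minus that in Lab Water-0 ng/L was computed, and likewise Wetland-119 ng/L minus Wetland-0 ng/L, and the 100 transcripts with the highest value of the smaller of the laboratory difference and the sign-reversed wetland difference were kept. Those 2 differences chose the members, so their size and direction are given below as a description, without a test.

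Pools of 5 whole animals, from stock bought from Carolina Biological Supply, were measured after 96 h of exposure. The paper calls them neonates, and they were under 24 h old when exposure began. The wetland and stormwater experiments differed somewhat as batches, which the paper adjusted for. It proposes that the animals' genetic background, which was not the same in both, may be the reason. Every test here stayed within the same experiment, and the part of genetic background was not tested. In the wetland experiment, laboratory water gave 5 libraries at each dose of pyriproxyfen (Lab Water-0, Lab Water-119 and Lab Water-239 ng/L), and water of the Breen, Douglas, Kandiyohi, Kerk, LeSouer and Woodland wetlands gave 24 libraries spiked to the lower of those doses (Wetland-119 ng/L) and 30 that were not (Wetland-0 ng/L). Wetland water without pyriproxyfen carried the ethanol vehicle, whereas the laboratory water control was water only, so in laboratory water pyriproxyfen and its carrier cannot be told apart. In the stormwater experiment, which the choice of members did not use, libraries came from neonates kept in water of 9 sampling points (inflows and outfalls of treatment sites with the label BMP, and storm pipes), with 45 libraries in Spring, 44 in Early Summer and 50 in Late Summer, and from the SCSU Control of the same seasons (6, 5 and 10), all without added pyriproxyfen. Late Summer includes a second set of PIPE-SAP and of SCSU Control libraries (10 libraries), and the labels do not say how it differs. Otherwise, pools of a treatment came from 1 exposure and shared 1 water sample, so p-values within a water measure the spread between these pools. Seasonal tests pooled the 9 sampling points and counted each pool as a unit, although the pools of a water shared 1 water sample. Their p-values therefore mix the spread between pools with that between waters. They can be too small as a measure of the spread between waters. Library totals ranged from 5040650 to 15037010 estimated reads. Lab Water-119 ng/L libraries held 7245298 to 14059337, and Lab Water-0 ng/L libraries held 10112584 to 13070549.

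Pyriproxyfen is an insecticide that mimics juvenile hormone. In Daphnia it acts through the receptor for methyl farnesoate, the crustacean hormone of that family, and makes mothers bear male young. Arthropods shed and rebuild a cuticle of chitin and cuticular proteins at each molt, and hormones of the ecdysteroid and juvenile hormone families time these cycles. Kunitz-type protease inhibitors are small secreted proteins that block serine proteases.

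Of the members, 24 carry a protein name, 62 are listed as uncharacterized, conserved, hypothetical or expressed proteins, and 14 have no name in the sources used here. The names rest on similarity to proteins of other species. Among the named members are 7 transcripts of the cuticle list (Cuticular protein 27 precursor, a Chitin_bind_4 protein, 3 transcripts named Cuticular protein and both named Endocuticle structural glycoprotein SgAbd-2, after a locust protein), 3 Kunitz-type protease inhibitors, both transcripts named Zormin (in Drosophila a muscle Z-disc protein), both named for carbonic anhydrases (enzymes that interconvert carbon dioxide and bicarbonate), a Chorion peroxidase precursor (in mosquitoes such an enzyme hardens the eggshell), an fk506 binding protein (a folding enzyme), a Clip-domain serine protease, an Alpha-amylase that digests starch, a di-domain hemoglobin precursor and a cytochrome P450 (Dapma7bEVm007241t1). Dapma7bEVm011184t1 and Dapma7bEVm028598t1 held identical values in every library and so share their reads, and 5 other pairs of members correlated above 0.99 over all libraries. The 100 members therefore stand for fewer separate measurements.

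The laboratory difference had a median of 3.79 over the members, with a lowest value of 0.92 and a highest of 9.78, against a median of 0.09 over all 16482 transcripts (log2(CPM + 1) scale). The wetland difference had a median of -1.30, from -2.88 to -0.92, against 0.07 over all transcripts. At the edge of the choice, Dapma7bEVm027838t1 (laboratory 0.92, wetland -1.52) and Dapma7bEVm017275t1 (2.80 and -0.92) were the last kept. Just outside were Dapma7bEVm028897t1 (6.85 and -0.91) and Dapma7bEVm002067t1 (4.39 and -0.91), so there was no gap at the cut.

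**Figure D1:**
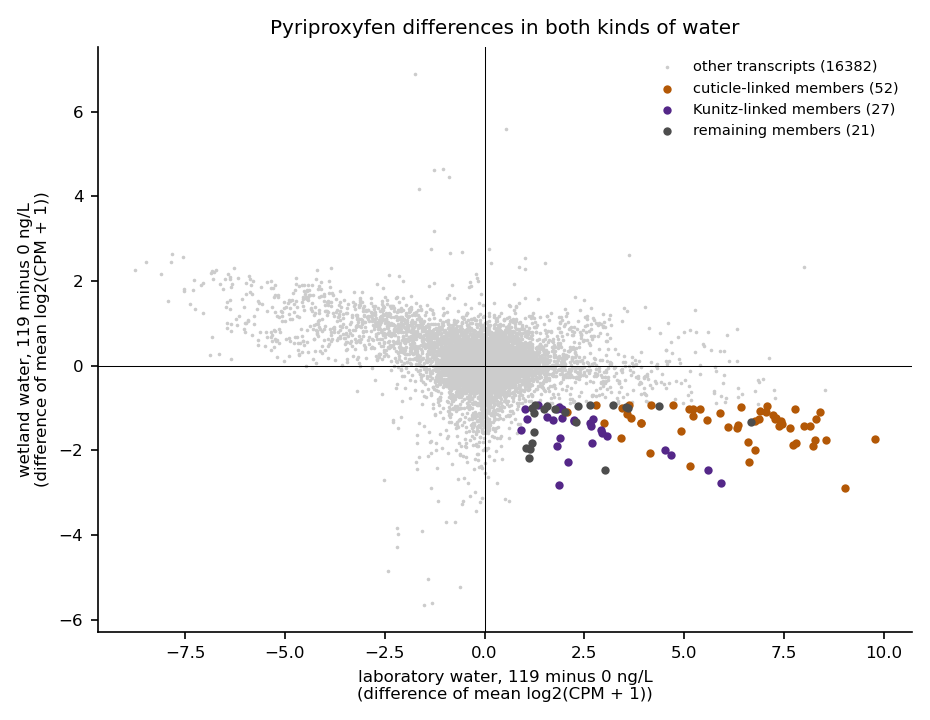
Each point is 1 of 16482 transcripts; the x axis is the laboratory water difference (Lab Water-119 minus Lab Water-0 ng/L) and the y axis the wetland water difference (Wetland-119 minus Wetland-0 ng/L), both in mean log2(CPM + 1). The 100 members, coloured by subset, lie below -0.91 on the y axis and reach 9.78 on the x axis, because they were chosen on these axes.

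In laboratory water, the members summed to 18662 to 27165 CPM in the 5 Lab Water-119 ng/L libraries, against 948 to 1654 CPM in the 5 Lab Water-0 ng/L libraries. The first-ranked member, Dapma7bEVm010872t1, a conserved protein of unknown role, had 1351, 961, 995, 1893 and 1783 CPM in Lab Water-119 ng/L, against 1.80, 0.69, 2.03, 1.77 and 1.91 CPM in Lab Water-0 ng/L. Cuticular protein 27 precursor (Dapma7bEVm011304t1) had 710.0, 751, 473, 906 and 687 CPM in Lab Water-119 ng/L, against 2.23, 1.78, 1.33, 0.93 and 0.61 CPM in Lab Water-0 ng/L. In neither transcript did the groups overlap. The Chorion peroxidase precursor Dapma7bEVm001757t1 had 56.7, 127.9, 46.6, 141.5 and 55.5 CPM in Lab Water-119 ng/L, against 1.29, 0.91, 0.45, 3.59 and 0.72 CPM in Lab Water-0 ng/L.

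The Kunitz-type protease inhibitor Dapma7bEVm003446t1 had 95.1, 24.2, 183, 47.6 and 174 CPM in Lab Water-119 ng/L, against 1.01, 0.53, 0.93, 0.36 and 0.77 CPM in Lab Water-0 ng/L. A further Kunitz-type inhibitor, Dapma7bEVm027813t1, had 20.6, 6.88, 72.0, 9.56 and 49.0 CPM in Lab Water-119 ng/L and was at 0 in all Lab Water-0 ng/L libraries. Set against a floor of 3 counts per library, its mean was at least 123.47-fold higher. The spread among the Lab Water-119 ng/L libraries was wide for both inhibitors, and all 5 stood above all 5 without pyriproxyfen.

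Members named as a Zormin, a carbonic anhydrase and a further cuticular protein had high levels with pyriproxyfen and much lower levels without it. Zormin Dapma7bEVm015019t1 had 834, 1049.5, 594, 1203 and 1063 CPM in Lab Water-119 ng/L, against 0.46, 0.89, 4.12, 26.1 and 2.42 CPM in Lab Water-0 ng/L. The Carbonic anhydrase Dapma7bEVm027279t1 had 392, 177, 228, 379.8 and 335 CPM in Lab Water-119 ng/L, against 1.46, 1.98, 2.30, 2.01 and 2.30 CPM in Lab Water-0 ng/L. The cuticular protein Dapma7bEVm011058t1, a structural protein of the exoskeleton, had 627, 942, 481, 949 and 533 CPM in Lab Water-119 ng/L, against 0.94, 2.77, 2.12, 8.95 and 2.91 CPM in Lab Water-0 ng/L. All of these groups lay apart, and in both Zormin transcripts replicate 4 was the highest of the Lab Water-0 ng/L libraries.

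Smaller differences belonged to members with a basal level or a low maximum. The fk506 binding protein Dapma7bEVm015479t1 had 6.04, 5.93, 21.99, 9.67 and 17.7 CPM in Lab Water-119 ng/L, against 2.40, 2.08, 2.39, 1.85 and 2.30 CPM in Lab Water-0 ng/L. The SgAbd-2 transcript Dapma7bEVm015121t1 had 73.6, 52.2, 61.8, 65.1 and 75.1 CPM in Lab Water-119 ng/L, against 8.59, 32.5, 2.92, 0.58 and 1.46 CPM in Lab Water-0 ng/L. The hemoglobin precursor had 5.36, 25.6, 1.84, 7.75 and 15.4 CPM in Lab Water-119 ng/L, against 1.13, 0.78, 0.14, 0 and 0.74 CPM in Lab Water-0 ng/L. In each of these the groups did not overlap, but the highest library without pyriproxyfen came within a factor of 3 of the lowest with it.

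Among the 10 members of highest rank, 8 are of unknown function. Dapma7bEVm005116t1 had 70.0, 40.4, 281, 75.8 and 161.2 CPM in Lab Water-119 ng/L, against 1.11, 0.59, 1.15, 0.23 and 0.46 CPM in Lab Water-0 ng/L. Dapma7bEVm004931t1 had 37.6, 16.1, 13.04, 19.8 and 20.2 CPM in Lab Water-119 ng/L, against 2.57, 1.19, 1.41, 1.93 and 1.22 CPM in Lab Water-0 ng/L. Dapma7bEVm000939t1, Dapma7bEVm005791t1, Dapma7bEVm006925t1 and Dapma7bEVm011012t1 were likewise higher in all 5 libraries, with laboratory differences of 6.61, 4.68, 4.14 and 6.77 on the log2(CPM + 1) scale, and Dapma7bEVm027383t1 had one of 2.10. The members that also belong to the list common to both pyriproxyfen gene sets, a list chosen on these libraries, were Dapma7bEVm004931t1, the Chorion peroxidase precursor, Dapma7bEVm000939t1, Dapma7bEVm006925t1, Dapma7bEVm011012t1, Dapma7bEVm028208t1 and Dapma7bEVm007408t1.

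Over all members, 83 of 100 had every Lab Water-119 ng/L library above every Lab Water-0 ng/L library, a pattern that 7.88% of the 16482 transcripts showed; since the rule used this contrast, nothing is read from the count. Likewise 79 members were called higher (edgeR quasi-likelihood test, Benjamini-Hochberg adjusted p under 0.05 and a log2 fold change beyond 2), where 1.74% of all transcripts tested were. In this fit 96 members had positive log2 fold changes and 4 negative ones, the lowest -0.76, although the rule's own difference was positive for all. Among the members not called were the Clip-domain serine protease Dapma7bEVm018830t1, whose relatives act in extracellular protease cascades, and the Alpha-amylase Dapma7bEVm002637t1. The protease had 11.1, 65.0, 16.3, 53.0 and 18.3 CPM in Lab Water-119 ng/L, against 0.12, 0, 52.7, 66.1 and 66.7 CPM in Lab Water-0 ng/L, so the groups overlapped throughout. The amylase had 22.2 to 59.5 CPM in Lab Water-119 ng/L, against 5.83 to 7.27 CPM in 4 libraries and 81.5 CPM in the fifth in Lab Water-0 ng/L.

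Other transcripts of the cuticle list mostly went the other way. Of the 68 other transcripts named as cuticle proteins that could be tested, 13 were called higher and 41 lower (1.74% and 3.39% of all transcripts) in Lab Water-119 than in Lab Water-0 ng/L, and their median log2 fold change was -3.72. Their summed level was 2336 to 4585 CPM in Lab Water-119 ng/L, against 3234 to 5933 CPM in Lab Water-0 ng/L. Among 45 other serine proteases, 4 were called higher and 17 lower, and of 26 other digestive enzymes 1 was higher and 14 lower. Of 13 other chorion peroxidases 2 were called higher and 10 lower (median log2 fold change -3.90), and of 10 cathepsins 1 was higher and 7 lower. Among 29 other retroelement proteins 16 were called higher and 2 lower, and of 4 muscle actins 3 were higher. The summed muscle actin level was low, at 2.60 to 8.66 CPM in Lab Water-119 ng/L against 0.00 to 1.03 CPM in Lab Water-0 ng/L. These actin calls thus rest on few reads. Most of these lists come from gene sets that the study chose on these libraries, and their part in the members' difference was not tested. In whole animals, fewer cells of a type and less RNA per cell cannot be told apart.

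In wetland water the differences were smaller and the libraries much more scattered than in laboratory water. Dapma7bEVm010872t1 ran from 0.57 to 1156 CPM with a median of 3.04 in the 24 Wetland-119 ng/L libraries, against 0.32 to 1522 CPM with a median of 346 in the 30 Wetland-0 ng/L libraries. Cuticular protein 27 precursor ran from 0.21 to 396 CPM (median 21.9) in Wetland-119 ng/L, against 0.24 to 691 CPM (median 179.7) in Wetland-0 ng/L. The inhibitor Dapma7bEVm003446t1 ran from 0.27 to 658 CPM (median 0.90) in Wetland-119 ng/L, against 0.44 to 553 CPM (median 92.3) in Wetland-0 ng/L. Ranges overlapped almost wholly while the medians lay far apart and many libraries were either high or low. For no member were the wetland groups apart, and 8 members were called lower (edgeR), where 0.558% of all transcripts were; the rule used this contrast too, and nothing is read from the count. With the wetland as a covariate the count was 20, and with counts summed per wetland it was 4.

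**Figure D2:**
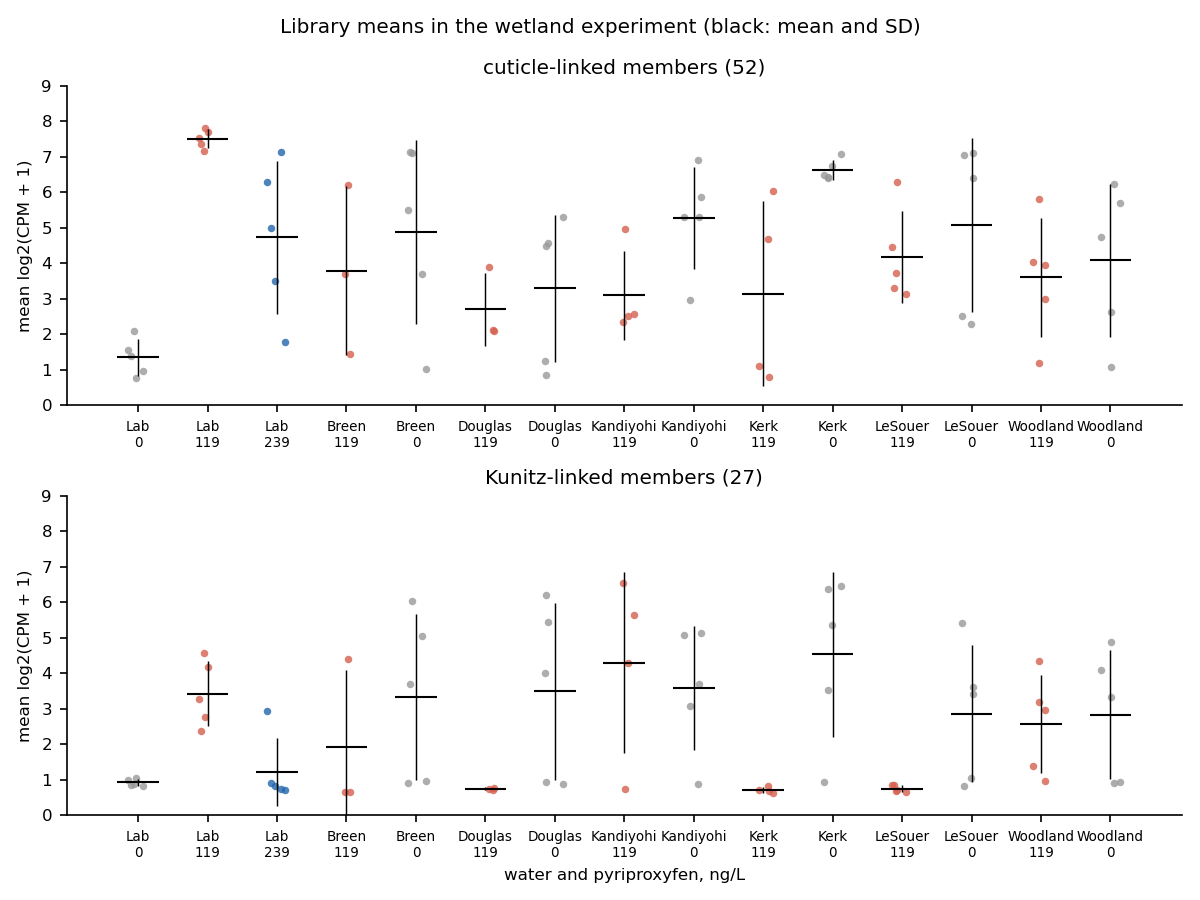
Points are libraries of the wetland experiment, by water and pyriproxyfen dose in ng/L; the y axis is the mean log2(CPM + 1) over the 52 cuticle-linked (top) or 27 Kunitz-linked members (bottom), with the group mean and SD in black. Lab Water-119 ng/L libraries lie at 7.18 to 7.82 in the upper panel, and within most wetland groups the libraries split into high and low ones.

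The members were split into subsets by their correlation with a seed transcript. Closer variation within a subset than between subsets, over the libraries used for the split, therefore follows from the definition. Over the 160 libraries of the stormwater experiment, 52 members had a Pearson correlation of at least 0.6 with Cuticular protein 27 precursor (called cuticle-linked below for that seed transcript; 5 of the 52 are of the cuticle list) and 27 had one of at least 0.6 with the inhibitor Dapma7bEVm003446t1 (Kunitz-linked); none had both, and 21 had neither. Of all 16482 transcripts, 2.17% and 1.13% reached the same thresholds. At a threshold of 0.5 the subsets held 55 and 28 members, 1 of them in both, and at 0.7 they held 46 and 25. These correlations are descriptive, since libraries of one water share their water sample, and neither subset mean followed library depth there (r = 0.00 and 0.01).

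The subsets were also described in the wetland libraries, which did not define the subsets but did serve to choose the members. Over the 30 Wetland-0 ng/L libraries, the median correlation between 2 members was 0.83 among the cuticle-linked and 0.97 among the Kunitz-linked, and 0.07 between the subsets. Over the 24 Wetland-119 ng/L libraries these medians were 0.68, 0.96 and -0.04. The means of the subsets correlated at 0.10 and -0.03 in these libraries, and at 0.31 within Spring, 0.43 within Early Summer and 0.00 within Late Summer stormwater, so that some variation was shared in 2 of the seasons. The rule used the means of these libraries, and such means depend on which libraries are high. These correlations are therefore not independent of the choice of members, and nothing is read from their size.

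**Figure D3:**
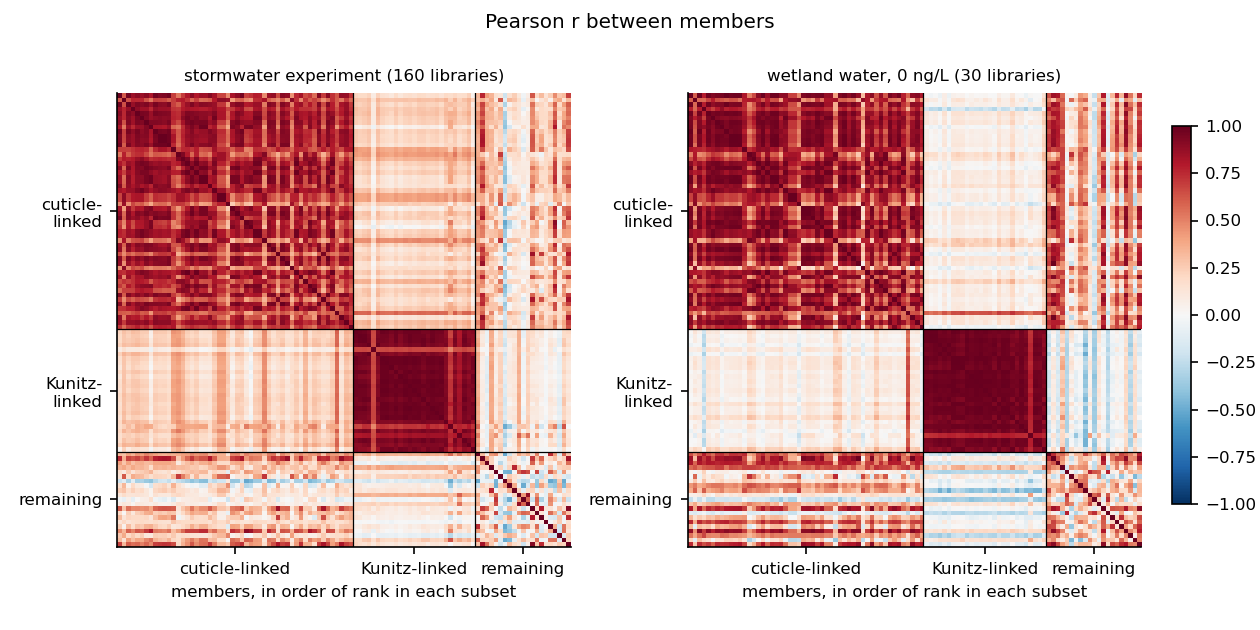
Pearson correlation between all pairs of the 100 members in log2(CPM + 1), over the 160 stormwater experiment libraries (left) and the 30 Wetland-0 ng/L libraries (right), with both axes ordered by subset and rank. The Kunitz-linked block is the most uniform (median 0.94 left, 0.97 right), and correlations between the subsets are lower than those within them (median 0.23 left, 0.07 right). The subsets were defined over the libraries of the left panel, so this difference follows there from the definition.

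The cuticle-linked subset holds 5 of the 7 members of the cuticle list, both Zormin transcripts, the Carbonic anhydrase Dapma7bEVm027279t1, the Chorion peroxidase precursor, a retroviral polyprotein (TE: Polyprotein of retroviral origin) and the cytochrome P450. Its mean log2(CPM + 1) was 7.18 to 7.82 in Lab Water-119 ng/L, against 0.77 to 2.10 in Lab Water-0 ng/L. The Kunitz-linked subset holds all 3 Kunitz-type inhibitors, the fk506 binding protein Dapma7bEVm015479t1, an Ankyrin repeat protein (Dapma7bEVm011708t1), a transcript named Testis development protein nyd-sp29 (Dapma7bEVm002215t1) and an APPLE_Factor_XI_like domain protein (Dapma7bEVm005773t1). Its mean was 2.37 to 4.57 in Lab Water-119 ng/L, against 0.82 to 1.05 in Lab Water-0 ng/L. The transcript of Dapma7bEVm005257t1 (no member here), named for a doublesex-related transcription factor of a family with roles in sexual development, followed the Kunitz-linked mean (r = 0.89 over the 160 stormwater experiment libraries and 0.97 over the 30 Wetland-0 ng/L libraries) more closely than the cuticle-linked mean (0.42 and -0.03).

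The remaining 21 members shared no such pattern, and both SgAbd-2 transcripts, the second carbonic anhydrase, the Clip-domain protease, the amylase and the hemoglobin are among them.

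The higher dose in laboratory water separated the subsets. For the cuticle-linked members the mean log2(CPM + 1) was 0.77, 0.97, 1.55, 2.10 and 1.39 in replicates 1 to 5 of Lab Water-0 ng/L, 7.54, 7.36, 7.18, 7.82 and 7.69 in Lab Water-119 ng/L, and 3.49, 7.12, 5.00, 1.77 and 6.29 in Lab Water-239 ng/L. For the Kunitz-linked members it was 1.05, 0.82, 0.99, 0.87 and 0.86 in Lab Water-0 ng/L, 3.27, 2.37, 4.57, 2.75 and 4.18 in Lab Water-119 ng/L, and 0.81, 0.74, 0.90, 0.72 and 2.93 in Lab Water-239 ng/L. At the higher dose the cuticle-linked libraries thus spread over nearly the whole range between the lower doses, whereas 4 of 5 Kunitz-linked means lay below or within those of the libraries without pyriproxyfen. The mean in Lab Water-239 ng/L lay nearer to that in Lab Water-119 than to that in Lab Water-0 ng/L for 46 of 100 members, namely 36 of 52 cuticle-linked, 1 of 27 Kunitz-linked and 9 of 21 others. Among 1027 other transcripts with a laboratory difference at least as large as the lowest member's, the share was 59.7%. Without replicate 2 of Lab Water-239 ng/L, the library with the highest cuticle-linked mean, the count was 26. These values share the Lab Water-119 and Lab Water-0 ng/L libraries with the rule and were not tested.

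Single transcripts showed the same division. Cuticular protein 27 precursor had 9.70, 519.9, 229, 2.77 and 641 CPM in Lab Water-239 ng/L, and Dapma7bEVm010872t1 had 2.21, 1088, 24.2, 2.24 and 241 CPM. Replicates 2 and 5 were high in both, and replicate 4 was low. The inhibitor Dapma7bEVm003446t1 had 0.90, 0.67, 0.97, 0.96 and 70.7 CPM, so that only replicate 5 was raised.

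By group means, and without a test, the wetlands were unlike in which subset was lower with pyriproxyfen. In Kerk water the cuticle-linked mean was 3.15 ± 2.61 with pyriproxyfen (Kerk Wetland-119 ng/L) (SD, n = 4), against 6.63 ± 0.28 without (n = 5), and the Kunitz-linked mean was 0.70 ± 0.08 against 4.53 ± 2.32. In Kandiyohi water the cuticle-linked mean was 3.09 ± 1.25 (n = 4) against 5.28 ± 1.45 (n = 5), while the Kunitz-linked mean was higher with pyriproxyfen, 4.30 ± 2.55 against 3.57 ± 1.75. All 27 Kunitz-linked members were higher with pyriproxyfen in Kandiyohi water by their means, and all 27 were lower in Breen, Douglas, Kerk and LeSouer water. In Douglas and LeSouer water the Kunitz-linked mean was 0.74 in both with pyriproxyfen, with SDs of 0.04 and 0.10, against 3.49 ± 2.49 and 2.86 ± 1.93 without. In Woodland water the Kunitz-linked means were close, 2.56 ± 1.39 against 2.83 ± 1.83 (n = 5 each).

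Over all members, the mean was lower in Wetland-119 than in Wetland-0 ng/L for 98 in Breen, 80 in Douglas, 73 in Kandiyohi, 97 in Kerk, 91 in LeSouer and 75 in Woodland water, beside 34.9%, 38.5%, 44.4%, 60.9%, 50.8% and 37.7% of all 16482 transcripts. Lower means in all 6 wetlands were seen for 32 members (7.02% of all transcripts), in 5 for 50 and in 4 for 18. As the rule fixed the wetland average, these counts describe where the difference lay. Counting libraries whose subset mean exceeded 2, a level set after the values were seen, 7 of 24 Wetland-119 ng/L and 20 of 30 Wetland-0 ng/L libraries were high for the Kunitz-linked members, and 20 of 24 and 26 of 30 for the cuticle-linked members.

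**Figure D4:**
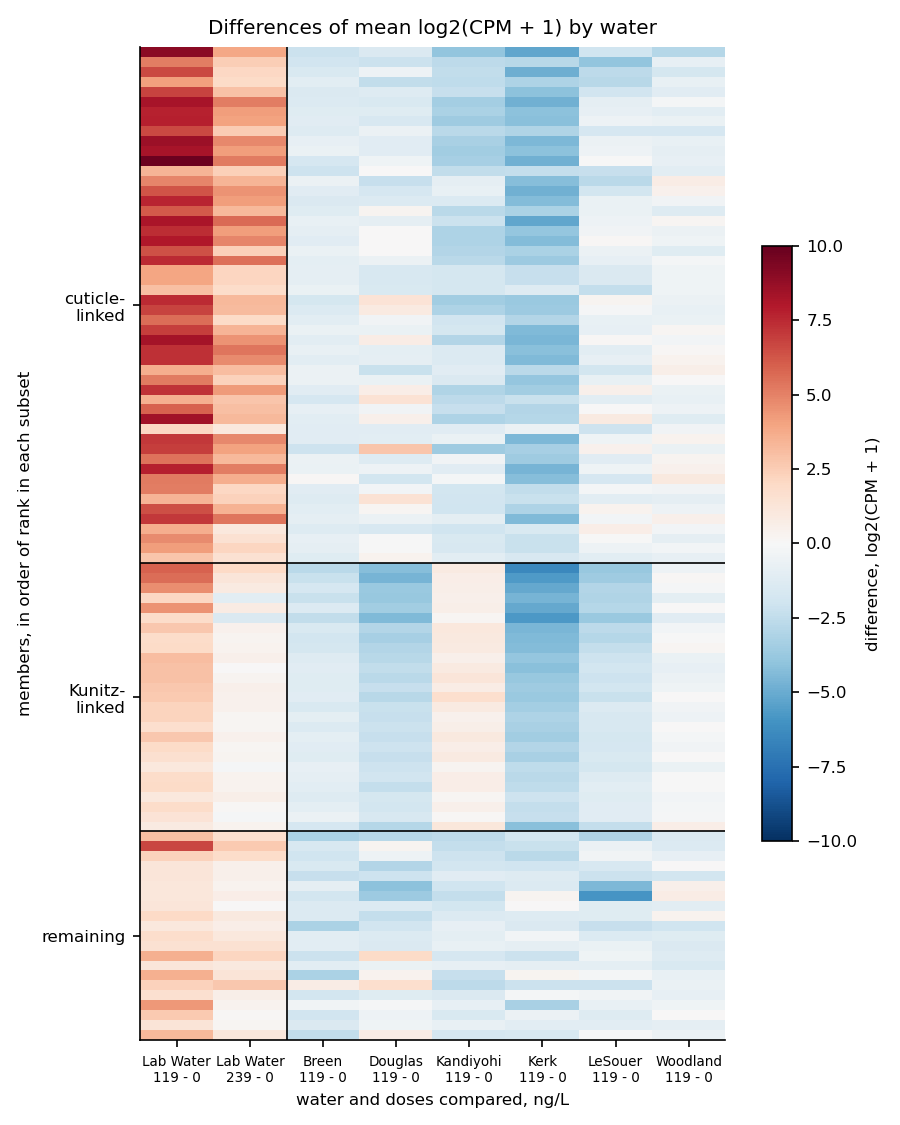
Each row is a member and each column a pair of doses in 1 water (Lab Water-119 and Lab Water-239 minus Lab Water-0 ng/L, then the spiked minus the unspiked water of each wetland); colour is the difference in mean log2(CPM + 1), red for higher with pyriproxyfen. Kunitz-linked rows are red in Kandiyohi water (0.15 to 1.64), blue in Breen, Douglas, Kerk and LeSouer water, and of either sign for Lab Water-239 ng/L (-1.47 to 2.00).

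Differences among the 6 wetland waters were tested at each dose. The rule averaged over the waters, but its means came from these same libraries, so the counts are not independent of the choice of members. In Wetland-0 ng/L, 1 of 100 members was called (edgeR F-test, adjusted p under 0.05 and fitted waters more than 2 apart on the log2 scale), where 2.72% of all transcripts were. It was the unnamed Dapma7bEVm001534t1, with medians of 107.9 CPM in Breen, 56.1 CPM in Kandiyohi and 39.4 to 41.8 CPM in the other waters (edgeR, adjusted p = 0.025, range 2.15). Without replicate 1 or replicate 5 of Breen Wetland-0 ng/L no member was called.

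In Wetland-119 ng/L, 7 members were called, where 0.14% of all transcripts were, and all 7 were Kunitz-linked. The lowest adjusted p was that of the inhibitor Dapma7bEVm003446t1 (edgeR, adjusted p = 0.032), whose fitted waters spanned 8.59 on the log2 scale. It had a median of 228 CPM in Kandiyohi and 63.3 CPM in Woodland water, where all but the lowest of the Kandiyohi libraries (1.76 CPM) exceeded 2 CPM. In Douglas, Kerk and LeSouer water no library passed 1.12 CPM, and in Breen water 1 library had 137.3 CPM. The other 6 were Kunitz-type protease inhibitor 2 (Dapma7bEVm028016t1), the fk506 binding protein, and Dapma7bEVm005791t1, Dapma7bEVm012425t1, Dapma7bEVm008141t1 and Dapma7bEVm027838t1. The count depended on single libraries: leaving out 1 library at a time gave 0 to 24 members, and the fit with a replicate block gave 0. Kunitz-linked members vary together in these libraries (median correlation 0.96), so the 7 calls do not count 7 separate events. Each wetland also gave only 1 water sample.

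Season in stormwater, which played no part in the choice, was accompanied by lower levels of most members in Early Summer. In Early Summer against Spring stormwater, 63 of 100 members were lower and none higher (edgeR, Benjamini-Hochberg adjusted p under 0.05 and log2 fold change beyond 2), where 1.45% of all 26128 transcripts tested were called lower and 0.459% higher. The background also includes transcripts under 1 CPM, which the members' filter left out. The median log2 fold change was -2.35 over the members, against -0.03 over all transcripts. An unadjusted p under 0.05 (edgeR) was found for 85 of 100 members, beside 43.8% of all transcripts. Members within a subset vary together, so the 63 calls do not count 63 separate events. With counts summed per water sample and the sampling point as a covariate, 44 were called lower.

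All 27 Kunitz-linked members were among these calls. The largest fall was that of Dapma7bEVm005116t1, an uncharacterized protein, with 0.09 to 84.5 CPM (median 0.50) in Early Summer stormwater, against 0.52 to 1845 CPM (median 446) in Spring stormwater. Its log2 fold change was -6.99 ± 0.67 (SE; edgeR adjusted p = 8.3e-15). The inhibitor Dapma7bEVm003446t1 had 0.25 to 82.7 CPM (median 1.27) in Early Summer, against 0.16 to 1002 CPM (median 359) in Spring. Kunitz-type protease inhibitor 2 had a median of 0.31 CPM in Early Summer, against 42.0 CPM in Spring. In these transcripts a few Spring libraries were as low as those of Early Summer, and the bulk of both seasons lay far apart. The fk506 binding protein, with medians of 2.70 CPM in Early Summer against 42.7 CPM in Spring, had the lowest adjusted p of the members (edgeR, 3.7e-21, log2 fold change -4.53).

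Of the cuticle-linked members, 34 of 52 were called lower in Early Summer, and the other 18 also had negative log2 fold changes. Cuticular protein 27 precursor had 0.20 to 311 CPM (median 3.00) in Early Summer stormwater, against 0.33 to 2242 CPM (median 177) in Spring stormwater, a log2 fold change of -2.82 ± 0.63 (SE; edgeR adjusted p = 1.8e-04). The Chorion peroxidase precursor had a median of 0.68 CPM in Early Summer, against 13.9 CPM in Spring (log2 fold change -3.73). Zormin Dapma7bEVm015019t1 had medians of 26.3 CPM in Early Summer against 514 CPM in Spring. The cytochrome P450, one of a large family of oxidizing enzymes, fell by 3.84 on the log2 scale, with medians of 0.77 CPM in Early Summer against 18.5 CPM in Spring. The other cuticle list transcripts did not share this: of 68, 3 were called higher and 1 lower, with a median log2 fold change of 0.82. Only 2 of the 21 remaining members were called, the Clip-domain serine protease (log2 fold change -2.28) and Dapma7bEVm004931t1 (-2.28).

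In Late Summer against Spring stormwater the subsets parted. There, 26 members were lower and 1 higher, where 1.16% and 0.344% of all transcripts were, and 25 of the 26 were Kunitz-linked while no cuticle-linked member was called. By an unadjusted p under 0.05 alone (edgeR) the members were near the background, with 41 of 100 beside 39.4% of all transcripts. Kunitz-type protease inhibitor 2 (Dapma7bEVm028016t1) fell most, with 0 to 96.6 CPM (median 0.33) in Late Summer against 0 to 228 CPM (median 42.0) in Spring, a log2 fold change of -4.50 ± 0.57 (SE; edgeR adjusted p = 2.7e-10). The median log2 fold change was -3.75 over the Kunitz-linked and -0.46 over the cuticle-linked members. The single rise was that of Dapma7bEVm022841t1, which was at 0 in most stormwater libraries and reached no more than 2.67 CPM.

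In Late Summer against Early Summer stormwater, 31 members were higher and none lower, where 0.55% of all transcripts were called higher and 0.531% lower. They were 19 cuticle-linked members, 11 Kunitz-linked members and Dapma7bEVm022841t1. With edgeR, 82 of 100 members had an unadjusted p under 0.05, beside 50.8% of all transcripts. The largest rise was that of Dapma7bEVm007408t1, an uncharacterized protein, with 0 to 54.6 CPM (median 1.56) in Late Summer against 0 to 2.99 CPM (median 0) in Early Summer (log2 fold change 4.66 ± 0.59, SE; edgeR adjusted p = 2.2e-10). Cuticular protein 27 precursor averaged 256 ± 267 CPM (SD, n = 50) in Late Summer, against 49.6 ± 90.6 CPM (n = 44) in Early Summer (log2 fold change 2.17, edgeR adjusted p = 8.4e-04). The seasonal comparisons share libraries and are given side by side, each with its own values. The subsets were defined over these same libraries, so their shares of the calls are a breakdown and not a test.

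The seasonal order held at most sampling points. The mean of the Kunitz-linked members was lower in Early Summer than in Spring at 9 of 9 points and lower in Late Summer than in Spring at 9 of 9, and that of the cuticle-linked members was lower in Early Summer than in Spring at 7 of 9 and higher in Late Summer than in Early Summer at 9 of 9. By library, 39 of 45 Spring, 2 of 44 Early Summer and 6 of 50 Late Summer stormwater libraries had a Kunitz-linked mean above 2. For the cuticle-linked mean the counts were 37 of 45, 22 of 44 and 46 of 50.

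**Figure D5:**
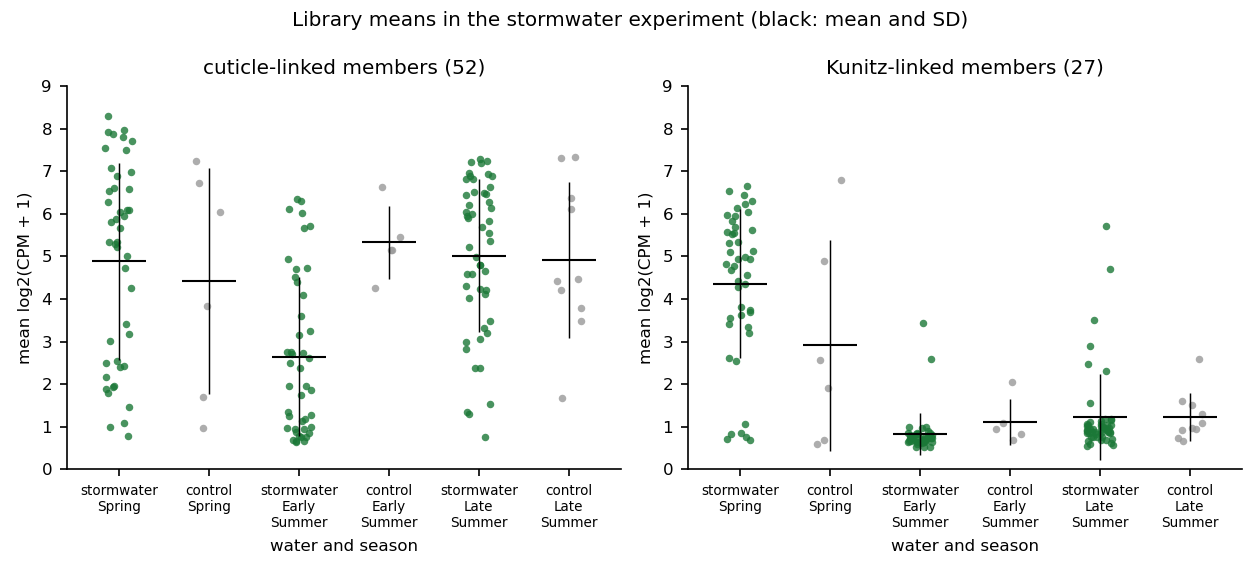
Points are libraries of the stormwater experiment by season, stormwater in green and SCSU Control in grey; the y axis is the mean log2(CPM + 1) over the 52 cuticle-linked (left) or 27 Kunitz-linked members (right), with the group mean and SD in black. Kunitz-linked means of Spring stormwater have a median of 4.81, against 0.72 in Early Summer and 0.93 in Late Summer.

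Season here is that of water collection. The paper's conclusions place all stormwater exposures in 1 winter month. The sources used here do not say whether each season's water was run on its own. The controls carry the same season labels and are given beside the stormwater. Kunitz-linked means exceeded 2 in 3 of 6 Spring, 1 of 5 Early Summer and 1 of 10 Late Summer control libraries. Cuticle-linked means exceeded 2 in 4 of 6, 5 of 5 and 9 of 10, where 22 of 44 Early Summer stormwater libraries did. In a comparison added after the data were seen, 5 members, all Kunitz-linked, were lower in Late Summer than in Spring controls (edgeR, where 0.315% of all transcripts were lower), among them the fk506 binding protein (log2 fold change -4.39). Between Early Summer and Spring controls edgeR called none (0.0% of all transcripts), while 33 of 100 members had an unadjusted p under 0.05, as had 9.57% of all transcripts. All 27 Kunitz-linked members had negative log2 fold changes between these controls, with a median of -4.24 and 23 at an unadjusted p under 0.05, beside a median of -5.65 in stormwater. In Late Summer against Spring controls their median was -4.05, with 26 of 27 at an unadjusted p under 0.05, beside -3.75 in stormwater. Kunitz-linked members vary together, and their subset was defined over libraries that include these controls, so these counts are not separate events. The lowest edgeR adjusted p of any member was 0.45 in Early Summer against Spring controls. The cuticle-linked median in Early Summer against Spring was -0.52 in controls and -2.26 in stormwater. The interaction of season with stormwater against controls, Early Summer against Spring, was called by edgeR for 3 members (1.14% of all transcripts), none of them in either subset, and with edgeR for no member in Late Summer against Spring (0.00382% of all transcripts; 2 members at an unadjusted p under 0.05) or Late Summer against Early Summer (0.378%; 9 members). Late Summer against Early Summer controls likewise gave no edgeR call among 99 members tested (0.209% of all transcripts; 9 members at an unadjusted p under 0.05). In Early Summer against Spring, the lowest edgeR adjusted p of the interaction for a Kunitz-linked member was 0.16 and for a cuticle-linked member 0.11, so the seasonal differences of these subsets were not shown to differ between stormwater and controls. The interaction estimate was negative for 47 of 52 cuticle-linked members, with a median of -2.07. Only 4 of the 52 had an unadjusted p under 0.05 (edgeR), beside 24.7% of all transcripts. These members vary together over the same libraries, so the 47 do not count separate events.

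Against the controls of their own season, few members were called; these comparisons share their stormwater libraries with the seasonal ones. In Early Summer, 3 of 100 members were higher and 5 lower (edgeR), where 1.28% and 1.65% of all transcripts were. At an unadjusted p under 0.05 (edgeR) the members fell short of the background, with 29 of 100 beside 38.2% of all transcripts. The largest fall was that of Zormin Dapma7bEVm015019t1, with 0.70 to 1015 CPM (median 26.3) in stormwater against 323, 1124, 1156, 1460.4 and 1582 CPM in the 5 controls (log2 fold change -2.69 ± 0.99, SE; edgeR adjusted p = 0.037). The largest rise was that of Carbonic anhydrase 2 (Dapma7bEVm029200t1), with 0 to 148.3 CPM (median 9.04) in stormwater against 0, 0, 0.21, 0.52 and 3.32 CPM in the controls (log2 fold change 5.23 ± 1.91, SE; edgeR adjusted p = 0.035). The di-domain hemoglobin precursor Dapma7bEVm011771t1, an oxygen carrier, was also higher (log2 fold change 2.79). In the same comparison 5 of 9 other globins were called higher and 5 of 5 muscle actins lower. Lists without members had calls too: 7 of 9 proteins named for JmjC histone demethylation were higher and 9 of 21 ribosomal proteins lower. Of 8 copper-zinc superoxide dismutases, 4 were higher and 1 lower. A tie of any list to the members was not tested. Leaving out replicate 2, 3 or 4 of these controls gave 3, 3 and 2 members.

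In Spring, stormwater against controls gave no called member with edgeR (6 of 100 at an unadjusted p under 0.05, beside 9.40% of all transcripts; 1 member with DESeq2; 0.0386% of all transcripts called). In Late Summer there was likewise none with edgeR or DESeq2 (2 of 100 at an unadjusted p under 0.05, beside 6.01% of all transcripts; 0.0192% of all transcripts called). The Kunitz-linked mean ranged from 0.70 to 6.65 in Spring stormwater against 0.59 to 6.79 in Spring controls, and from 0.54 to 5.72 in Late Summer stormwater against 0.66 to 2.58 in Late Summer controls.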

How the data were processed

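The authors sequenced strand-specific mRNA libraries of pooled neonates, trimmed reads with Trimmomatic and assigned them with kallisto to D. magna reference transcripts; versions and genome build are not given in the sources used here. The deposited table holds kallisto estimated counts per transcript, not normalized, in 230 libraries; they were rounded for testing, and reads of near-identical transcripts may be split between them.

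CPM used column totals. Tests used edgeR 4.0.16 in R 4.3.3 (TMM, quasi-likelihood F-test, Benjamini-Hochberg over all transcripts with variance), with DESeq2 1.42.0 as an alternative. Standard errors were derived from the F statistic. Other alternatives were the normalization, a low-count filter, the adjusted p alone, a replicate block, covariates, summed counts and libraries left out. On simulated data for Early Summer against Spring, 200 of 200 transcripts changed by 3 on the log2 scale were recovered. False calls numbered 0 there, 5 for unspiked wetland waters and 3 for Early Summer stormwater against controls. The simulation gave all transcripts the same spread, changed only those above a low mean count and held no differences between waters. It therefore does not measure recovery for the more scattered members.

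The members and lists were chosen with earlier results of these data known. Named are the 10 members of highest rank, members with a protein name (20 by rank; 4 more fall outside that rule), members of the study's set common to both pyriproxyfen gene lists, the extreme called members of each comparison and those at the rank cut. The subsets, the level of 2 for library means, and 6 comparisons (controls between seasons, interactions) were added after seeing the data. The rule left out Dapma7bEVm005257t1, which ranked 540. Left out was also 1 library whose label and code give different seasons.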

Additional observations from a re-analysis of the deposited data

Results flagged for a closer look

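Within groups of 4 to 10 libraries, the mean log2(CPM + 1) over all members, over the cuticle-linked and over the Kunitz-linked members was checked in 45 groups each, and 16 of these checks found a library far from the others of its group; chance gives about 1 in 20 for normally distributed values, a rate not tested for these libraries, many of which were either high or low. For the Kunitz-linked mean, single libraries were high at 2.93 in Lab Water-239 ng/L replicate 5 (others 0.72 to 0.90), 2.46 in BMP-TBNS1-Inflow Late Summer replicate 5, 5.72 in BMP-TBNS1-Outfall Late Summer replicate 4, 4.72 in BMP-TBNS2-Inflow Late Summer replicate 5, 2.60 in BMP-TBNS2-Outfall Early Summer replicate 2, 3.43 in PIPE-Crystal-Lake Early Summer replicate 5 and 2.32 in the second PIPE-SAP Late Summer set, replicate 3. Single libraries were low at 0.75 in BMP-37ST-Inflow Spring replicate 2, 0.72 in BMP-TBNS1-Inflow Spring replicate 5, 0.87 in PIPE-Cedar-Lake Spring replicate 4, 0.63 in BMP-37ST-Inflow Late Summer replicate 5 and 0.58 in BMP-37ST-Outfall Late Summer replicate 5. The Spring ones lay among libraries of 4.28 to 6.53, and the high ones of Early and Late Summer among libraries of 0.52 to 1.57.

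For the cuticle-linked mean, Kandiyohi Wetland-119 ng/L replicate 3 was high at 4.96 (others 2.34 to 2.56), as was BMP-37ST-Inflow Early Summer replicate 1 at 5.66 (others 2.71 to 3.16). For the mean of all members, BMP-37ST-Inflow Spring replicate 2 was low at 3.31 (others 5.47 to 6.15) and BMP-TBNS1-Outfall Late Summer replicate 1 at 3.02 (others 4.17 to 4.45).

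Stormwater against controls differed between Early Summer and Spring for Dapma7bEVm004931t1, with a difference of log2 fold changes of -4.22 ± 0.95 (SE; edgeR interaction, adjusted p = 0.0062), and for Carbonic anhydrase 2, Dapma7bEVm029200t1, with 6.23 ± 1.99 (SE; edgeR interaction, adjusted p = 0.038).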

How the results depend on the processing

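No season count turned its main direction. Early Summer against Spring gave 44 to 82 members over the alternatives and Late Summer against Spring 24 to 39. Late Summer against Early Summer gave 20 with a low-count filter, 48 with the sampling point as a covariate and 78 by adjusted p alone, against 31. Of those 31 members, 17 were among the 29 called with counts summed per water sample, 21 among the 29 under the replicate block and 21 among the 48 with the covariate; of the 63 of Early Summer against Spring, 43 were among the 44 called with summed counts. Among wetland waters, DESeq2 called 10 members in Wetland-0 ng/L and 25 in Wetland-119 ng/L, against 1 and 7; the low-count filter gave 2 in Wetland-0 ng/L. Of the contrasts that the rule used, the laboratory one gave 71 to 80 members with 1 library left out, and the wetland one gave 27 by adjusted p alone, 20 with the wetland as a covariate and 4 summed per wetland, against 8. Spring stormwater against controls gave 1 with DESeq2. The cause of these shifts was not tested.

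Replicate numbers did not pair the libraries: deviations of same-numbered libraries had a median correlation of -0.03 in the wetland and 0.02 in the stormwater experiment, and 10 of 69 and 43 of 160 libraries correlated best with one of their own number. The replicate block gave 2 members for waters of Wetland-0 ng/L, 0 for Wetland-119 ng/L and 18 for Early Summer stormwater against controls, and moved no other count by over 1.5 times.

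With 1 library left out, wetland waters gave 0 to 3 members in Wetland-0 ng/L. In Wetland-119 ng/L they gave 0 to 24: 24 without Kandiyohi replicate 3, 23 without Breen replicate 3, 4 without Kandiyohi replicate 4 or Woodland replicate 1 or 4, 2 without Woodland replicate 2, and 0 without any of Douglas replicates 1 to 3, Kandiyohi 1 and 2, Kerk 1 to 4, LeSouer 2 to 5 or Woodland 3. Early Summer against controls gave 2 to 8. Of the 100 members the rule kept 87 to 99 with 1 laboratory library left out, 81 with a pseudocount of 0.1 and 76 to 91 with 1 wetland left out. The count nearer to Lab Water-119 ng/L at the higher dose was 26 to 57. At the named transcripts, the call for Dapma7bEVm003446t1 among Wetland-119 ng/L waters was lost under the replicate block (edgeR adjusted p = 0.15), and the rise of Dapma7bEVm022841t1 under summed counts (edgeR adjusted p = 0.17) and, by its size of 1.92, with the covariate. The range was 1.80 to 2.38 for Dapma7bEVm001534t1, 7.75 to 9.04 for Dapma7bEVm003446t1, 4.88 to 7.41 for Dapma7bEVm029200t1 and -2.97 to -2.51 for Dapma7bEVm015019t1.

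Limits: a level under about 0.26 CPM is within 3 counts at these depths; wetland and stormwater groups rest on 1 water sample each; near-identical transcripts share reads; and transcript names come from similarity.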

Other observations

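The library left without a season, whose label reads Late Summer and whose code letter is that of Early Summer (BMP-37ST-Inflow), had a mean log2(CPM + 1) of 3.46 over the cuticle-linked, 0.64 over the Kunitz-linked and 3.21 over the remaining members.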
